A study of Mus musculus with 6 samples.

Results

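Hepatic nuclear receptors are ligand-responsive or constitutively active transcription factors that set the gene programme of the liver cell. The 10 genes followed here were Hnf4a, Nr1i2, Nr1i3, Nr1h4, Nr1h3, Nr5a2, Nr0b2, Rxra, Ppara and Nr2f6. Every probe that the platform's annotation maps to one of these symbols was taken, whatever its values, which gave 18 of the 45281 probes on the array, and 10 of its 19057 named genes. A probe was tested when at least 2 arrays exceeded the median intensity of that array. Of the 18 probes, 16 passed, covering 9 of the 10 genes, and 26272 probes passed in all. The only probe of Nr0b2 and 1 of the 5 probes of Nr1i3 did not pass.

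The cells were primary hepatocytes of male C57Bl/6J mice, plated on collagen and kept in Williams' E medium containing insulin (1 nM), dexamethasone (50 nM) and fetal calf serum (5%), conditions that all groups shared. One group received 2 ng/mL recombinant murine tumour necrosis factor alpha (TNFα), an inflammatory cytokine, for 2 days, another received the same dose for 2 hours, and the third was left untreated. Each group held 2 single-colour Illumina arrays, which measured the RNA level of each probe as a fluorescence intensity. Whether a group's 2 arrays stem from different animals or culture dishes is not stated in the labels, and the p-values therefore speak of array-to-array spread that could be technical alone. Nor do they give the time in culture of the untreated cells, so length of exposure and time in culture cannot be told apart.

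Most of these receptors bind DNA at copies of the half-site AGGTCA, many of them as heterodimers with RXRα, the product of Rxra. HNF4α binds as a homodimer and is a central activator of hepatocyte genes. PXR (Nr1i2) and CAR (Nr1i3) sense drugs and other foreign compounds, FXR (Nr1h4) senses bile acids, LXRα (Nr1h3) senses oxysterols and PPARα (Ppara) senses fatty acids. LRH-1 (Nr5a2) binds as a monomer and activates bile acid and cholesterol genes, SHP (Nr0b2) has no DNA-binding domain and represses LRH-1 and other receptors, and the orphan receptor EAR2 (Nr2f6) acts mostly as a repressor.

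The stretches just upstream of the annotated transcript starts are shown because they differ among the 5 genes that were called in some comparison. They come from RefSeq (GRCm38.p6), which held 14 such windows of 250 bases covering all 10 genes, and each is written 5′ to 3′ on the gene's own strand. Capitals mark a match, on either strand, to the nuclear receptor half-site AGGTCA (reverse complement TGACCT). Hnf4a has 2 annotated starts, 40298 bases apart, of which the upstream one belongs to the promoter known as P2 and the downstream one to P1, the promoter used in adult hepatocytes. A probe annotated to a gene does not tell its promoters apart.

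Hnf4a, P2, chr2:163506607-163506856, plus strand: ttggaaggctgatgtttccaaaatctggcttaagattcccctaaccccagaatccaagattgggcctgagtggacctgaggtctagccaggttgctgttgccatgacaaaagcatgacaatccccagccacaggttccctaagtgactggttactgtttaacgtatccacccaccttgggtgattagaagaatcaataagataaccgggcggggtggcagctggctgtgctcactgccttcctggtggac
Hnf4a, P1, chr2:163546905-163547154, plus strand: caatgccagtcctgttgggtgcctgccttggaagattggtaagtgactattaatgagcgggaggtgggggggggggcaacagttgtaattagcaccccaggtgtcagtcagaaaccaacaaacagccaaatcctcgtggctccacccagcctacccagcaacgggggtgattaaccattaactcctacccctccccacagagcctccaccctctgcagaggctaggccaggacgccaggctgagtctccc
Nr1i2, chr16:38294825-38295074, minus strand: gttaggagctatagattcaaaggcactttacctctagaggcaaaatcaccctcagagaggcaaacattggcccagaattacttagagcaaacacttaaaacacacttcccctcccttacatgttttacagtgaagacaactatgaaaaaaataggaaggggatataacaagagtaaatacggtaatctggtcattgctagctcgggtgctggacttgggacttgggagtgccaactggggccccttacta
Nr1h4, chr10:89506659-89506908, minus strand: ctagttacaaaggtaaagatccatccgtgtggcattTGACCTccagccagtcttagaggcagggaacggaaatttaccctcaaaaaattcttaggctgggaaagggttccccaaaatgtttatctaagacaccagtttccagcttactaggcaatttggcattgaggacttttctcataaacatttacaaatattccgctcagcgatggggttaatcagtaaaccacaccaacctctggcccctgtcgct
Nr5a2, upstream start, chr1:136960449-136960698, minus strand: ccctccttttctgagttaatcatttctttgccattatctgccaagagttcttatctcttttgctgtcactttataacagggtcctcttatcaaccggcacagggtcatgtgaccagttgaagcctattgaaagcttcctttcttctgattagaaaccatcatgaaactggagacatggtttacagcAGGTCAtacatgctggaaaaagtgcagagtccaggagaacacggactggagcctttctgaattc
Rxra, downstream start, chr2:27709042-27709291, plus strand: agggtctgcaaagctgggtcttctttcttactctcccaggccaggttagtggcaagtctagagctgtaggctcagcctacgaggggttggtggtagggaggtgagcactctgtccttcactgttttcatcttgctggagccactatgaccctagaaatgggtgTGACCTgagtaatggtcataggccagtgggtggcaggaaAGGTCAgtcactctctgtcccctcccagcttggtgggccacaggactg

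Counted from the transcript start, the Rxra window held AGGTCA once on each strand, at -48 to -43 in the gene's direction and at -87 to -82 in the opposite one. Nr5a2 held it once, at -64 to -59 in the gene's direction, and Nr1h4 once, at -214 to -209 in the opposite one. Both Hnf4a windows and the Nr1i2 window held no match, nor did the other annotated windows of Rxra (chr2:27676951-27677200) and Nr5a2 (chr1:136953631-136953880), whose sequences are not printed. AGGTCA lay in 3 of the 14 windows and in 14% of the 32851 windows of the same length in the whole table. The LRH-1 site CAAGGTCA, which contains AGGTCA, lay in none of the 14 and in 1.33% of the whole table. The HNF4 core CAAAGTCCA, also searched on both strands, lay in none of the 14 and in 0.384% of the whole table. These matches describe letters in a window and are not measured binding sites.

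The deposited intensities of the 6 arrays shared 1 distribution, with array medians between 143.16 and 143.22 and a lowest value of 96.54, so they still contained background and changes of dim probes are understated. Over the tested probes, the correlation was 0.9947 to 0.9951 within a group and 0.983 to 0.9917 between groups. The summed intensity of the hepatocyte markers (8 of 10 tested) was 95453 to 95904 at 2 days, 136653 to 137050 at 2 hours and 136518 to 140907 in untreated cells. Of these 8, 3 fell at 2 days, Cps1, Asgr1 and Apoa1. Ttr, Apoa1 and Trf were bright on every array, whereas the probes for Alb and Fgb, which also define hepatocytes, read near the array median everywhere. The summed bile duct markers (3 of 6 tested) reached 3180 to 3424 at 2 days, 1808 to 1828 at 2 hours and 1192 to 1208 in untreated cells through Sox9, which rose by 1.78 on the log2 scale at 2 days and by 0.79 at 2 hours. The macrophage markers (8 of 11 tested) summed to 1458 to 1557 at 2 days. Their sums were 1276 to 1298 at 2 hours and 1269 to 1313 in untreated cells. Of these 8, 2 were called higher at 2 days, C1qa (0.36) and C1qb (0.75), and none lower. The Kupffer cell markers Clec4f and Cd5l had no probe that passed. The stellate cell markers (5 of 8 tested) summed to 2798 to 3553 at 2 days, 2194 to 2418 at 2 hours and 2150 to 2625 in untreated cells. The endothelial markers (8 of 8 tested) summed to 1548 to 1578 at 2 days, 1536 to 1723 at 2 hours and 1496 to 1611 in untreated cells. The 2 day sums of the hepatocyte, bile duct, macrophage and stellate cell markers lay outside the range of the untreated arrays, and those of the endothelial markers within it. Bright probes weigh most in such sums. Of the 5 stellate cell markers 1 was called higher and 1 lower at 2 days, with a median log2 change of 0.04. Of the 8 endothelial markers 1 was called higher and 1 lower. Beside these marker counts, 6.46% of 13438 genes, by 1 probe each, were called higher at 2 days and 5.68% lower. The part of these markers in the results below was not tested.

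After 2 days of TNFα, RNA of 4 of the 9 tested receptor genes was lower than in untreated cells, and none was higher. The 4 were Nr1i2, Hnf4a, Nr1h4 and Rxra, with intensities of 0.533, 0.567, 0.694 and 0.749 times the untreated level. By 1 probe per gene, 5.68% of 13438 genes were called lower at 2 days and 6.46% higher. Nr1h4 and Rxra were not called after normexp background correction or without untreated replicate 1. At 2 hours none of the 4 had changed by the same test, and Nr5a2 was the only receptor called, at 1.87 times the untreated level on 1 of its 3 probes. Differences were tested with limma on log2 intensity, and a probe was called when the p-value, adjusted by Benjamini-Hochberg over all tested probes, was under 0.05. In a population of cells, fewer cells of a type and less RNA per cell cannot be told apart.

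The 4 falls were 4 of the 16 tested member probes, where 4.67% of all tested probes were called lower at 2 days and 4.96% higher. At 2 hours 1 of 16 was called higher, where 1.24% of all tested probes were, and 0 of 16 lower, where 0.651% were (2 more of the 16 had an unadjusted p under 0.05). Between 2 days and 2 hours 6 of 16 were called lower at 2 days, from 5 genes, where 5.49% of all tested probes were, and 0 of 16 higher, where 6.09% were. Both exposed groups were set against the same untreated arrays. The 2 day arrays lay wholly below the untreated arrays for 10 of the 16 probes, where 23.5% of all tested probes did so. The 10 include several probes each of Nr1i3 and Nr5a2, and probes of 1 gene are not independent. By the brightest probe, 6 of the 9 genes lay so, a count for which the share over all genes was not computed. Without untreated replicate 1, and likewise without replicate 1 of the 2 day group, 2 of the 16 were called lower at 2 days, Hnf4a and Nr1i2. The median log2 change of the 16 probes at 2 days was -0.16, against -0.00 over all tested probes. At 2 hours it was -0.02, against -0.01.

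**Figure D1:**
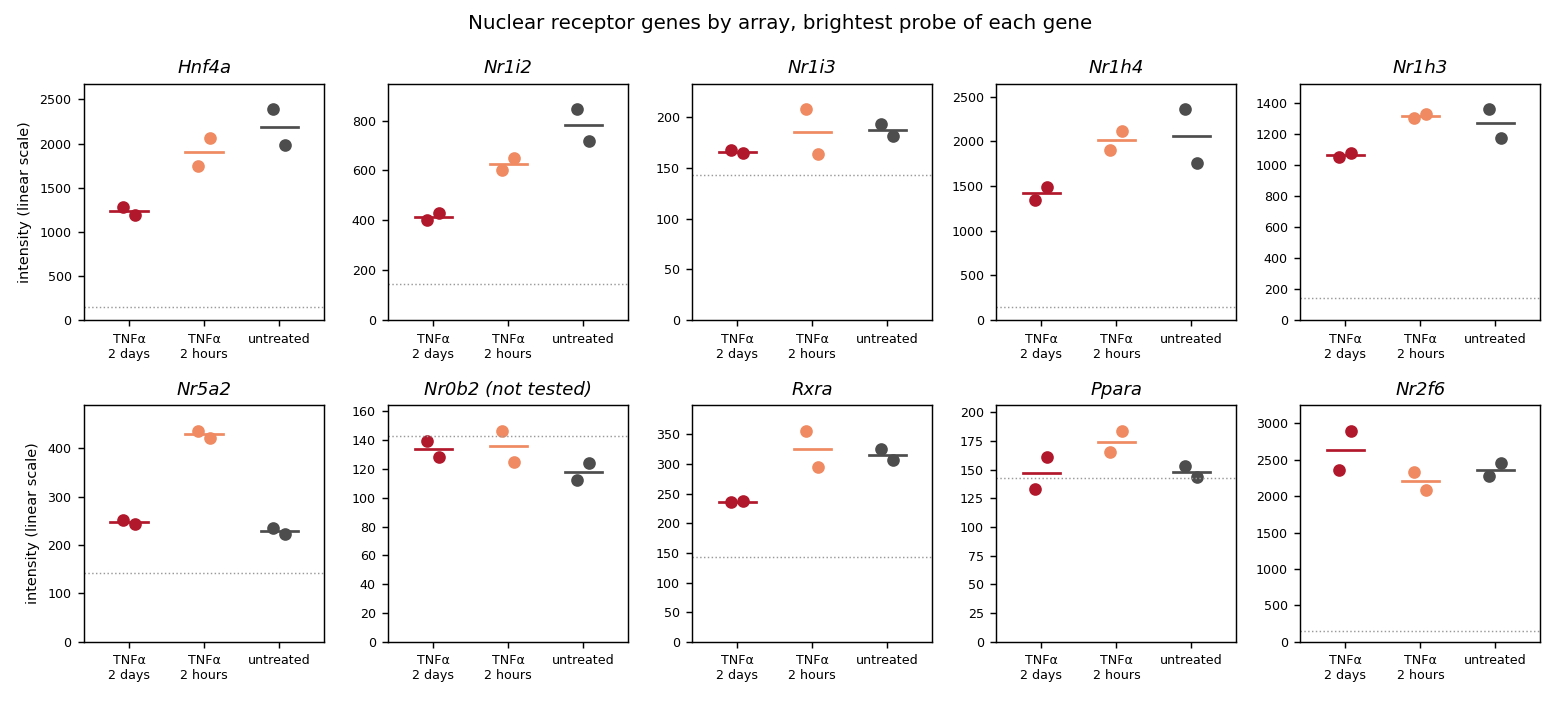
Intensity on a linear scale of the brightest probe of each of the 10 nuclear receptor genes, 1 point per array, for cells given TNFα for 2 days or 2 hours and untreated cells. Horizontal bars are means of 2 arrays and the dotted line is the array median (143.16). The 2 day points lie below all others for Hnf4a, Nr1i2, Nr1h4, Nr1h3 and Rxra, and the 2 hour points lie above all others for Nr5a2 and Ppara.

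Hnf4a (probe ILMN_1237767), which encodes the homodimeric activator of the hepatocyte programme, read 1286 and 1186 at 2 days, 1749 and 2058 at 2 hours, and 2392 and 1982 in untreated cells. The 2 day arrays lay below all others, and the 2 hour and untreated arrays overlapped. The means were 1236 ± 70.6 at 2 days, 1904 ± 218 at 2 hours and 2187 ± 290.2 in untreated cells (SD, n = 2 each). The log2 change at 2 days was -0.82 (SE 0.11, 95% interval -1.05 to -0.59, limma adjusted p = 1.27e-05). At 2 hours it was -0.20, with an interval of -0.43 to 0.03 and a limma adjusted p of 0.592. The fall at 2 days was called under each of the 14 alternative settings and without each array in turn.

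Rxra (ILMN_2741479) encodes RXRα, a heterodimer partner of PXR, CAR, FXR, LXRα and PPARα. It read 236 and 237 at 2 days, 356 and 295 at 2 hours, and 326 and 306 in untreated cells. Again the 2 day arrays were the lowest and the other groups overlapped. The log2 change at 2 days was -0.42 (SE 0.10, interval -0.63 to -0.20, limma adjusted p = 0.009997), and at 2 hours it was 0.04 (interval -0.18 to 0.25). The 2 arrays at 2 days differed by less than 1 unit (SD 0.371), and limma's error for this probe drew mostly on the spread over all probes. The call was not made after normexp background correction (-0.63, adjusted p = 0.114). Nor was it made without untreated replicate 1 (-0.37, adjusted p = 0.0973) or without replicate 1 (adjusted p = 0.0548) or replicate 2 (adjusted p = 0.0578) of the 2 day group.

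Nr1i2 (ILMN_2645737), which encodes the xenobiotic sensor PXR, showed the largest fall of the set at 2 days. It read 400.1 and 429.9 at 2 days, 601 and 650.2 at 2 hours, and 847 and 716 in untreated cells, with no overlap between any of the 3 groups. The means were 415 ± 21.1 at 2 days, 626 ± 34.5 at 2 hours and 782 ± 92.0 in untreated cells (SD, n = 2 each). The log2 change at 2 days was -0.91 (SE 0.10, interval -1.12 to -0.69, limma adjusted p = 1.23e-06), and it was called under each alternative setting and without each array. At 2 hours the value was -0.32 (interval -0.53 to -0.10), which had an unadjusted p of 0.00593 but did not pass after adjustment (limma adjusted p = 0.175). The level at 2 days was also below that at 2 hours (-0.59, limma adjusted p = 0.000307).

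Nr1i3, which encodes CAR, the other xenobiotic sensor, was dim on all of its 5 probes. The brightest (ILMN_2588846) read 168 and 165 at 2 days, 208 and 164 at 2 hours, and 194 and 182 in untreated cells. The 4 tested probes gave log2 changes of -0.26 to -0.04 at 2 days and -0.10 to 0.01 at 2 hours, and none was called in any comparison. The value of -0.26 came from ILMN_1212992, which read 153 and 143.1 at 2 days, 167 and 163 at 2 hours, and 183 and 172 in untreated cells (limma adjusted p = 0.108). Another tested probe (ILMN_2926661) passed on 2 arrays alone, and the fifth (ILMN_1221049), at 133.9 to 154.8, exceeded the median on 1 array and was not tested. All 5 read close to the array median, where any change would be understated. Whether these probes detected their RNA was not tested.

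Nr1h4 (ILMN_2727013), which encodes the bile acid receptor FXR, read 1341 and 1492 at 2 days, 1903 and 2122 at 2 hours, and 2363 and 1760.2 in untreated cells. The 2 day arrays were the lowest, and the untreated arrays spanned the 2 hour ones. The means were 1417 ± 107 at 2 days, 2012 ± 154 at 2 hours and 2061 ± 426 in untreated cells (SD, n = 2 each). The log2 change at 2 days was -0.53 (SE 0.12, interval -0.77 to -0.28, limma adjusted p = 0.00412), and at 2 hours it was -0.02 (interval -0.27 to 0.23). Without untreated replicate 1, the higher of the untreated arrays, the change was -0.32 (adjusted p = 0.177), and without replicate 1 of the 2 day group it was -0.45 (adjusted p = 0.0590). After normexp it was -0.56 (adjusted p = 0.193).

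Nr0b2 (ILMN_2717630), which encodes the repressor SHP and is a target of FXR, read 139 and 128 at 2 days, 147 and 125 at 2 hours, and 112 and 124 in untreated cells. Only replicate 1 at 2 hours exceeded its array's median, and the probe was not tested.

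Nr5a2, which encodes LRH-1, had 3 tested probes that gave different values. The brightest (ILMN_2634389) read 251 and 243 at 2 days, 436 and 421 at 2 hours, and 236 and 224 in untreated cells. The 2 hour arrays stood well above the rest, and the 2 day arrays lay just above the untreated ones. Its log2 change at 2 hours was 0.90 (SE 0.10, interval 0.70 to 1.10, limma adjusted p = 1.22e-06), and at 2 days it was 0.10 (interval -0.10 to 0.30, adjusted p = 0.660). The rise at 2 hours was called under each alternative setting and without each array.

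The second probe (ILMN_2813203) read 139 and 145 at 2 days, 174 and 188 at 2 hours, and 153 and 162 in untreated cells. It too was highest at 2 hours on both arrays, with a log2 change of 0.20 that was not called (interval -0.00 to 0.40, limma adjusted p = 0.492). The third probe (ILMN_2751680) read 151 and 145 at 2 days, 165 and 153 at 2 hours, and 181 and 159.7 in untreated cells, with a change at 2 hours of -0.10 (interval -0.31 to 0.11). The interval of the third probe lies wholly below that of the first. Both weaker probes read close to the array median. The mean of the 3 probes changed by 0.33 at 2 hours and was still called (limma adjusted p = 0.04999).

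**Figure D2:**
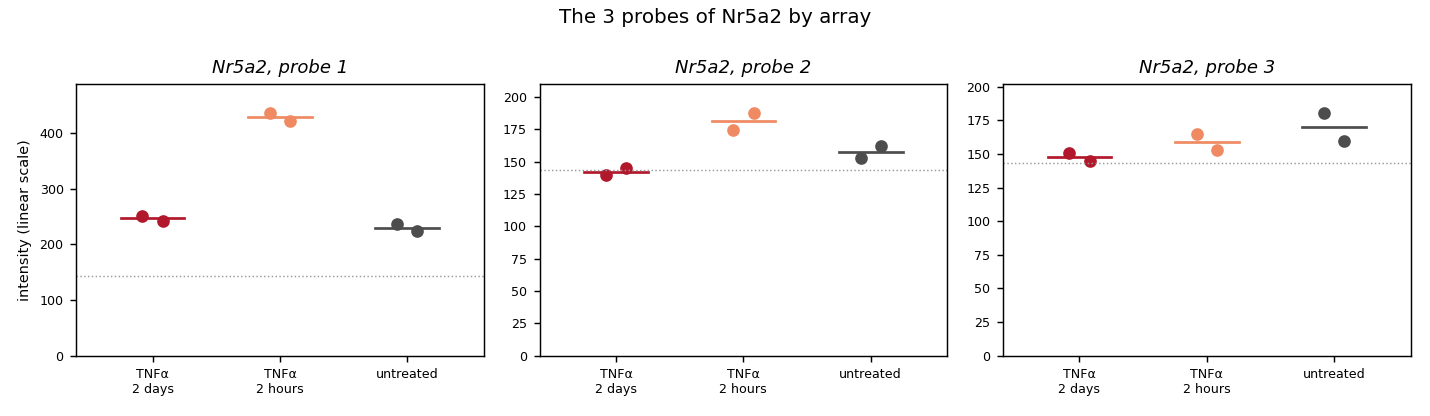
Intensity on a linear scale of the 3 probes of Nr5a2, 1 point per array, for cells given TNFα for 2 days or 2 hours and untreated cells. Bars are means of 2 arrays and the dotted line is the array median. The first probe reaches 421 to 436 at 2 hours, while the others stay between 139 and 188 in all groups.

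Nr1h3, which encodes the oxysterol receptor LXRα, had 2 tested probes and no call. The brighter (ILMN_2663374) read 1050.0 and 1079.7 at 2 days, 1302 and 1327 at 2 hours, and 1362 and 1175 in untreated cells. The 2 day arrays were the lowest, and the log2 value of -0.25 (interval -0.46 to -0.04) had an unadjusted p of 0.0214 and a limma adjusted p of 0.147. Against 2 hours the value at 2 days was -0.30, with a limma adjusted p of 0.0523. The dimmer probe (ILMN_2668472) read 237 and 213 at 2 days, 279.9 and 216 at 2 hours, and 277 and 218 in untreated cells, and its groups overlapped in all comparisons.

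Ppara (ILMN_2927172), which encodes the fatty acid receptor PPARα, read 134 and 161 at 2 days, 165 and 184 at 2 hours, and 153 and 143.4 in untreated cells. The 2 hour arrays were the highest, but the log2 value of 0.23 (interval 0.01 to 0.45) did not pass after adjustment (limma adjusted p = 0.447), and at 2 days the value was -0.02 (interval -0.24 to 0.21). This probe too lay near the array median. Nr2f6 (ILMN_2777598), which encodes EAR2, was bright and read 2357 and 2897 at 2 days, 2327 and 2087 at 2 hours, and 2269 and 2458 in untreated cells. Its values were 0.15 at 2 days (interval -0.08 to 0.37) and -0.10 at 2 hours (interval -0.33 to 0.13), and its groups overlapped in both. Its second probe (ILMN_1215135) gave 0.07 and -0.02.

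**Figure D3:**
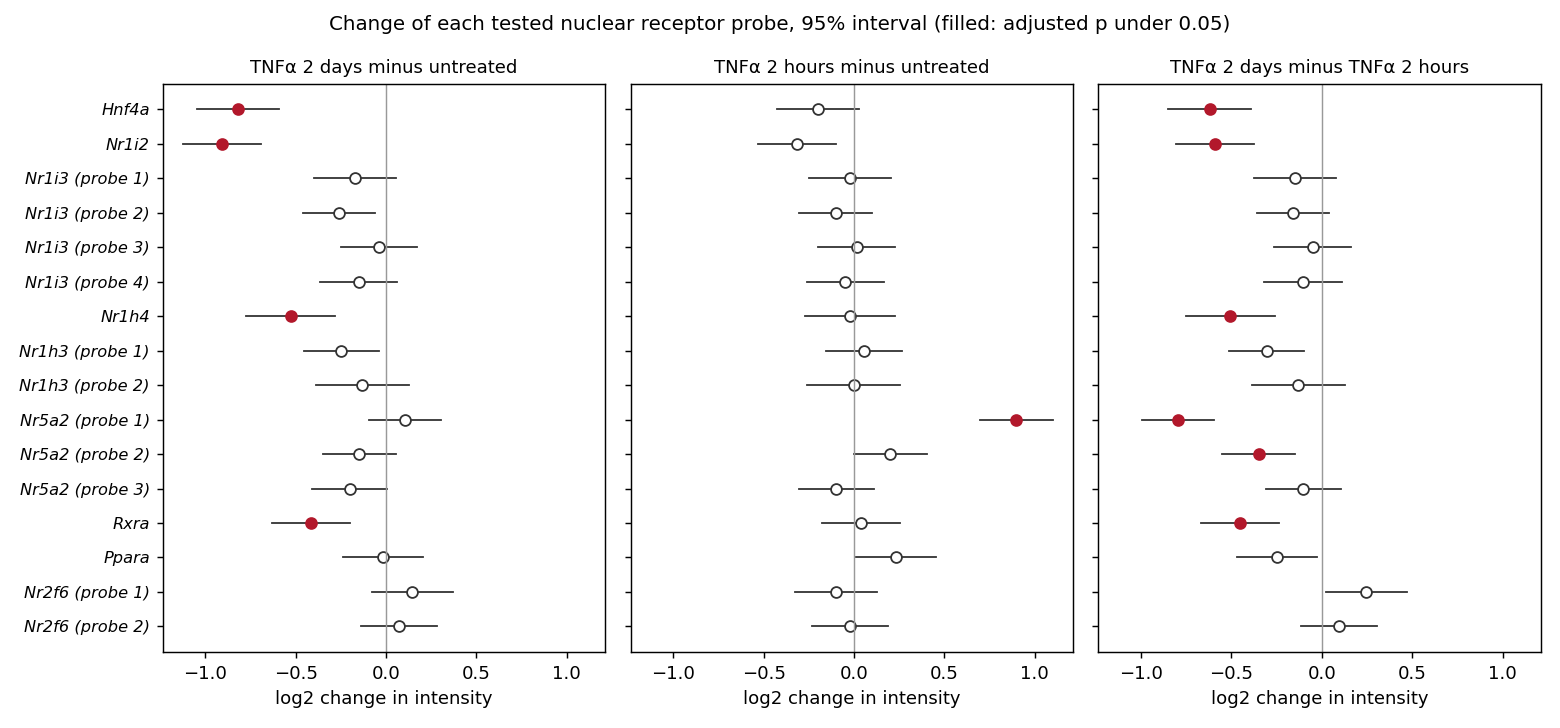
Log2 change in intensity of each of the 16 tested nuclear receptor probes, with 95% intervals, for TNFα 2 days minus untreated, TNFα 2 hours minus untreated, and TNFα 2 days minus TNFα 2 hours. Filled points were called at an adjusted p under 0.05. At 2 days Hnf4a, Nr1i2, Nr1h4 and Rxra are filled and below 0, and at 2 hours the first probe of Nr5a2 alone is filled, at 0.90.

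The direct comparison of the 2 exposures gave 6 calls, all lower at 2 days. These were Hnf4a (-0.62, limma adjusted p = 0.000361), Nr1i2 (-0.59), Nr1h4 (-0.51, adjusted p = 0.00522), Rxra (-0.45, adjusted p = 0.00423) and the first and second probes of Nr5a2 (-0.80, adjusted p = 2.42e-06, and -0.35, adjusted p = 0.0190). For Hnf4a, Nr1i2, Nr1h4 and Rxra the levels at 2 days were also below those in untreated cells. For Nr5a2 the 2 day level did not differ from the untreated level by the test on any of the 3 probes (intervals of the log2 change -0.10 to 0.30, -0.35 to 0.05 and -0.41 to 0.01). Between 2 days and 2 hours, Rxra lost its call when replicate 1 at 2 hours was left out (-0.32, adjusted p = 0.125). Nr1h4 was not called without replicate 1 of the 2 day group (adjusted p = 0.0674) or replicate 2 of the 2 hour group (adjusted p = 0.0899). After normexp the 4 genes other than Nr5a2 missed the threshold here, with limma adjusted p of 0.0856 for Hnf4a, 0.0557 for Nr1i2, 0.176 for Nr1h4 and 0.0804 for Rxra.

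Across the 6 arrays, log2 intensities of Hnf4a, Nr1i2, Nr1h4 and Rxra correlated at r = 0.797 to 0.973 over their 6 pairs. This description follows in part from the 3 groups they share and from choosing these 4 by their calls on the same arrays. Nr1h3, which was not called at 2 days, correlated with the 4 at r = 0.850 to 0.973. All 36 pairs of the tested genes, by brightest probe, spanned r = -0.696 to 0.973. The untreated arrays also differed among themselves: replicate 1 exceeded replicate 2 for 13 of the 16 member probes, where 49.6% of all tested probes did so.

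The genes whose 6 values lay nearest to each called receptor were found by Euclidean distance over log2 values centred on the untreated mean. Nearest to Hnf4a were Leng9 (distance 0.147), Phf11d (0.191) and Fgg (0.194), the gamma chain of fibrinogen. Nearest to Nr1i2 were Fga (0.193), the alpha chain of fibrinogen, Ppl (0.194) and Rhobtb1 (0.200). Nearest to Nr1h4 were Pemt (0.104), which makes phosphatidylcholine, Nme7 (0.121) and Creb3l3 (0.128), a liver transcription factor. Nearest to Rxra were Hgfac (0.112), the activator of hepatocyte growth factor, Pakap (0.120) and Pbld1 (0.135). Nearest to Nr5a2, on its first probe, were Ccn1 (0.124), an early response matrix protein, Borcs6 (0.164) and the chemokine Ccl20 (0.165).

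The surrounding network was described from 8 lists, with 1 probe per gene, the brightest that passed. The lists were chosen with earlier results of these data known, so their counts are descriptions and not tests. Of 149 distinct genes, 112 had such a probe. On this footing 5.68% of 13438 genes were called lower at 2 days and 6.46% higher, and 0.945% lower and 1.65% higher at 2 hours. Some genes stand in more than 1 list.

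Of 18 tested nuclear receptors outside the set, 1 was lower at 2 days and none higher. This was Rora, an activator within the circadian clock, at 1252 and 1269 at 2 days, against 1649 and 1820.0 in untreated cells (-0.46, SE 0.10, limma adjusted p = 0.00344). At 2 hours 1 was lower, the retinoic acid receptor Rarb, at 273 and 239.8, against 364 and 346 in untreated cells (-0.47, adjusted p = 0.0131). The median change of this list at 2 days was -0.02. Rxrb, which encodes the related receptor RXRβ, was not called at 2 days. It read 1275 and 1420, against 1011 and 1426 in untreated cells (0.16, limma adjusted p = 0.545). Its other probe gave -0.03. Of 15 coactivators and corepressors, Lpin1, a phosphatidate phosphatase and coactivator of PPARα, was lower at 2 days (-0.97, adjusted p = 1.25e-06) and at 2 hours (-0.46). Prox1, a corepressor of HNF4α and LRH-1, was called lower at 2 hours (-0.61, adjusted p = 0.000547). Its other probe gave -0.28 at 2 hours and was not called. At 2 days the brightest Prox1 probe gave -0.30 and was not called (limma adjusted p = 0.0649). Rora missed the threshold without untreated replicate 2 (-0.39, adjusted p = 0.0560). At 2 hours, Rarb and Lpin1 missed it without untreated replicate 1 (-0.44 and -0.30) or replicate 2 at 2 hours (-0.38 and -0.35), and when a gene's probes were averaged (-0.31 and -0.36).

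Genes that HNF4α regulates fell at 2 days in 9 of 16 cases, and none rose (list median -0.50). Apoa4, an apolipoprotein, read 3208 and 3116 at 2 days, 12313 and 12147 at 2 hours, and 11307 and 13583 in untreated cells, a log2 change of -1.97 at 2 days (SE 0.10, limma adjusted p = 2.96e-12). F12, coagulation factor XII, changed by -1.12 and the glucose transporter Slc2a2 by -1.28 (-0.65 to -0.53 on its other probes). These 3 genes were not called at 2 hours. G6pc, which releases free glucose in gluconeogenesis, differed from them: it read 333 and 241 at 2 days, 304 and 269 at 2 hours, and 807 and 1096 in untreated cells, and was the 1 gene of this list called at 2 hours.

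Of 15 genes regulated by PXR and CAR, 8 fell and 2 rose at 2 days (list median -0.43). Cyp3a11, the classical PXR target among the drug-oxidising cytochromes P450, read 311 and 476 at 2 days, 2240.0 and 2369 at 2 hours, and 3540.0 and 2567 in untreated cells, a change of -2.97 at 2 days (SE 0.15, limma adjusted p = 1.72e-12). Cyp2b10, the classical CAR target, read 912 and 879 at 2 days, 6402 and 5198 at 2 hours, and 7737 and 7958 in untreated cells, with -3.13 at 2 days and -0.44 at 2 hours (adjusted p = 0.0240). Its other probe gave -0.60 at 2 days. Cyp2a5 changed by -2.00 on the probe used and by -0.53 to -0.13 on its 4 other probes. Alas1, the first enzyme of heme synthesis, was lower at both times (-0.66 at 2 days and -0.73 at 2 hours). The fall of Cyp2b10 at 2 hours was not called without replicate 2 at 2 hours (-0.29, adjusted p = 0.453), without untreated replicate 1 (-0.46, adjusted p = 0.0985) or 2 (-0.42, adjusted p = 0.142), or when its probes were averaged (-0.30). The 2 that rose at 2 days were Abcc2, a canalicular export pump (0.96, adjusted p = 5.37e-06), and Gsta1, a glutathione transferase (0.87). The other probe of Abcc2 gave 0.42 at 2 days, and the other probes of Gsta1 gave 0.86 to 1.16.

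In the bile acid circuit of FXR and SHP, 4 of 16 genes fell and 1 rose at 2 days (list median -0.11), leaving out Cyp7a1, as was decided after its values were seen. Slc27a5 and Baat, which activate bile acids and join them to amino acids, both changed by -1.37, and Apoc2, an activator of lipoprotein lipase, changed by -1.13 (-0.21 on its other probe). Baat read 249 and 239.7 at 2 days, 469 and 695 at 2 hours, and 784 and 508 in untreated cells. The phospholipid pump Abcb4 was lower at 2 days (-0.50) and at 2 hours (-0.45). Cyp7a1, the rate-limiting enzyme of bile acid synthesis, read 128 and 128 at 2 days, 135 and 118 at 2 hours, and 185 and 154 in untreated cells. Its probe passed the filter through the untreated arrays alone, and all exposed values lay under the array median, so no size of change is given. At 2 hours Abcb4 was not called without untreated replicate 1 (-0.42), without replicate 1 at 2 hours (-0.44) or without replicate 2 at 2 hours (-0.46). The gene that rose was Osgin1, an oxidative stress response gene (0.98 at 2 days).

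Of 8 genes regulated by LRH-1, again leaving out Cyp7a1, 5 fell at 2 days and none rose (list median -0.68), while at 2 hours, when the first Nr5a2 probe was high, 1 rose and 1 fell (list median -0.01). Kyat1, a kynurenine aminotransferase, changed by -1.11 at 2 days, the kinase Plk3 by -0.88, Apoa1 by -0.82 and Apom by -0.74. Plk3 read 637 and 632 at 2 days, 751 and 699 at 2 hours, and 1172 and 1167 in untreated cells, and was already lower at 2 hours (-0.69, limma adjusted p = 6.48e-05). Apoa1, also a hepatocyte marker, read 25181 and 21974 at 2 days, 42029 and 41074 at 2 hours, and 41417 and 41715 in untreated cells. Abcg5, which with Abcg8 exports sterols into bile, read 273.5 and 325 at 2 days, 624 and 709 at 2 hours, and 503 and 423 in untreated cells. It was thus called lower at 2 days (-0.63) and higher at 2 hours (0.53, limma adjusted p = 0.00912). The rise of Abcg5 at 2 hours was not called without replicate 2 at 2 hours (0.44, adjusted p = 0.202) or without untreated replicate 2 (0.40, adjusted p = 0.176).

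Abcg5 was also the 1 gene of 12 regulated by LXR that was called at 2 days (2 were called without replicate 1 of the 2 day group). At 2 hours 2 of the 12 rose, Abcg5 and the lipase Lpl, which read 514 and 538 at 2 hours, against 374 and 322 in untreated cells (0.60, limma adjusted p = 0.000722). Of 16 genes regulated by PPARα, 2 rose and 2 fell at 2 days, with a list median of 0.01, equal to that of all genes. Acot1, an acyl-CoA thioesterase, changed by 0.60 (-0.19 on its other probe) and the peroxisomal thiolase Acaa1b by 0.44, and Creb3l3 changed by -0.52 and Angptl4, an inhibitor of lipoprotein lipase, by -0.38 (-0.03 on its other probe). Without replicate 1 of the 2 day group 2 of the 16 were called, the 2 falls missing the threshold (Creb3l3 -0.48, adjusted p = 0.0591, and Angptl4 -0.37, adjusted p = 0.0708). Creb3l3 was also not called without untreated replicate 1 (-0.28, adjusted p = 0.290), nor Acaa1b (0.35, adjusted p = 0.0943) and Angptl4 (-0.35, adjusted p = 0.0785) without untreated replicate 2. When probes were averaged, Acot1 gave 0.20 and Angptl4 -0.21, neither of them called. None of the 16 was called at 2 hours by limma, and 3 had an unadjusted p under 0.05.

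**Figure D4:**
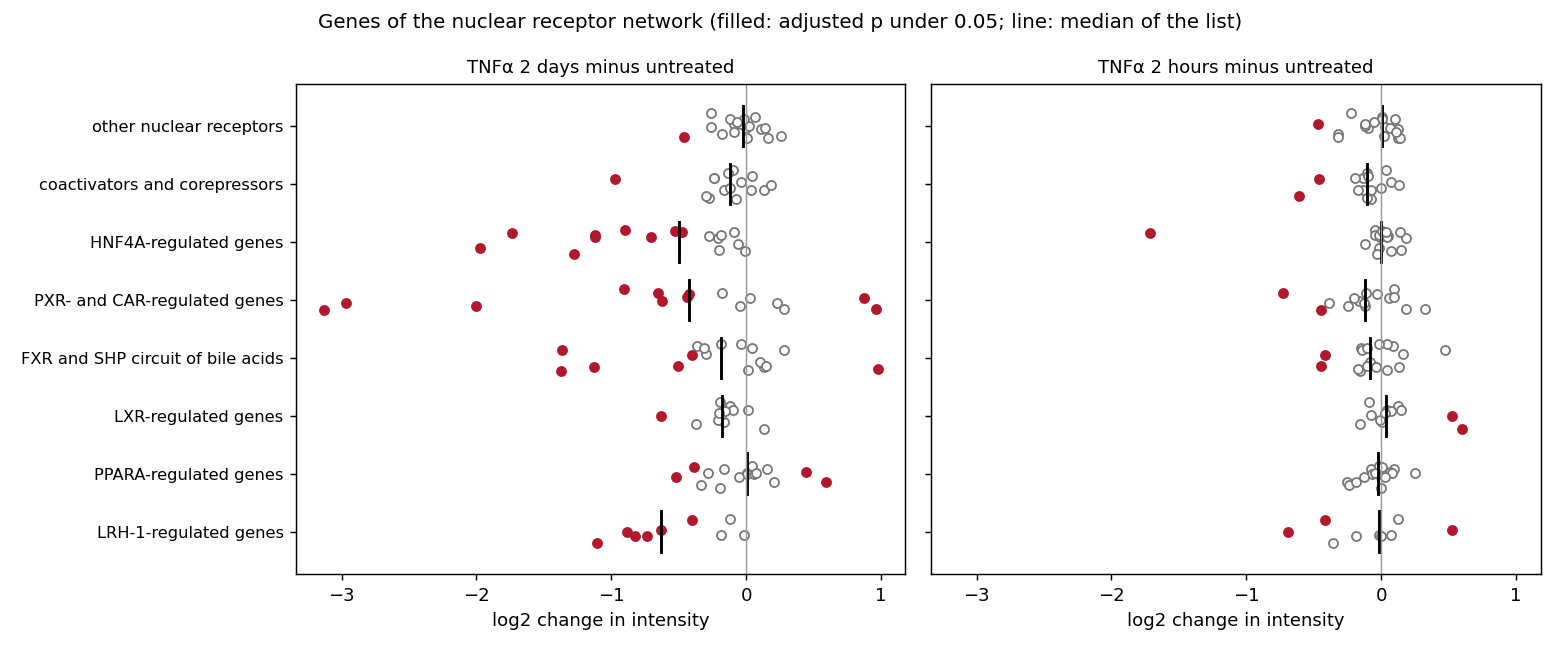
Log2 change in intensity of the tested genes of 8 lists around the nuclear receptors, 1 point per gene, for TNFα 2 days minus untreated and TNFα 2 hours minus untreated. Filled points were called at an adjusted p under 0.05. Vertical bars are list medians, here with Cyp7a1 included in the FXR and SHP and the LRH-1 lists. Cyp7a1 passed the filter through the untreated arrays alone, so its points are not read as a result. Without it the medians at 2 days are -0.68 (LRH-1) and -0.11 (FXR and SHP). At 2 days the medians lie furthest below 0 for the LRH-1 (-0.63), HNF4A (-0.50) and PXR and CAR (-0.43) lists, and at 2 hours all medians lie between -0.12 and 0.04.

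After normexp background correction fewer genes of these lists were called at 2 days. Of the PXR and CAR list 4 fell and 1 rose, and no gene of the other nuclear receptor, LXR or PPARα lists was called. At 2 hours G6pc alone of all 8 lists was called.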

How the data were processed

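RNA of mouse hepatocytes was measured on single-colour Illumina arrays. The authors deposited linear intensities, 1 for each probe on each array. Their software, normalization and treatment of background are not given in the sources used here. Once sorted, the columns agreed to within 0.333%, so no further scaling was applied. Groups and replicate numbers came from the titles. Of the probes, 34885 had 1 symbol in the platform table, 18 had several and 10378 were unlisted. Symbols were updated for 34807 probes through a RefSeq table (GRCm38.p6), used for names.

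Intensities were taken to log2, and limma 3.58.1 in R 4.3.3 was fitted to every probe with at least 2 arrays above that array's 50th percentile, with a mean for each of the 3 groups. Residual degrees of freedom were 3 and prior ones 19.14, so the error of a probe came mostly from all probes. P-values were adjusted by Benjamini-Hochberg over 26272 probes. The procedure was tested on simulated data with independent noise drawn from limma's own fitted variances. Such data hold no shifts shared by many probes of an array, so the test does not cover them. The number of arrays limits the precision. The named genes were all member probes, up to 4 called genes of each list with the largest change at 2 days and up to 2 at 2 hours, and for each called member the 3 nearest genes, clone names passed over. Gsta1, Rxrb and the marker genes were named outside that rule after their values were seen. The members, lists and markers were chosen with earlier results of these data known.

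Alternatives were median centring, cyclic loess, normexp, an offset of 16, other filters, 1 value per gene (brightest probe or mean), trended or robust variances, a fit of just the compared groups, thresholds of 0.01 and 0.1, a replicate block and the omission of each array in turn. Arrays with the same replicate number did not deviate together, so they were not treated as pairs. Promoter windows are the 250 bases before each RefSeq transcript start.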

Additional observations from a re-analysis of the deposited data

Results flagged for a closer look

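For 6 probes of 5 nuclear receptor genes the change at 2 days differed from the change at 2 hours by limma's test of the difference between the exposed groups. The untreated arrays enter this test through the shared estimate of error. The difference, 2 days minus 2 hours on the log2 scale, was -0.62 for Hnf4a, -0.59 for Nr1i2, -0.51 for Nr1h4 and -0.45 for Rxra. For Nr5a2 it was -0.80 on the first probe and -0.35 on the second. The first probe of Nr5a2 was above the untreated level at 2 hours, whereas the other 4 genes were below it at 2 days. With 2 arrays in a group, no array was tested for standing apart from its group.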

How the results depend on the processing

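Of the 16 member probes, the 4 calls at 2 days became 2 after normexp background correction (Hnf4a and Nr1i2), and 4 were made under each of the other 13 alternatives. Without single arrays the count was 2 to 4. The count of 1 at 2 hours stayed at 1 under all alternatives, 1 to 1 without single arrays. The 6 calls between 2 days and 2 hours became 2 after normexp, and were 4 to 7 without single arrays. There the second probe of Nr5a2 was not called without either 2 day array (adjusted p = 0.127 and 0.0642) or without replicate 2 at 2 hours (0.174). Nr1h3 was called there under 5 or more settings, for example cyclic loess (-0.35, adjusted p = 0.0274). No change of a member probe reversed while called.

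Over all tested probes, 2529 were called at 2 days, against 725 after normexp, 1345 genes when each gene's probes were averaged, 1559 at the stricter threshold of 0.01 and 1637 to 2449 without single arrays. At 2 hours 496 were called, against 112, 250, 300 and 281 to 518, and between the exposures 3043, against 965, 1645, 1910 and 1939 to 3181, in the same order.

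The arrays whose omission moved these counts by over 1.5 times were untreated replicate 1 (1637) and replicate 2 of the 2 day group (1651) at 2 days, both arrays of the 2 hour group at 2 hours (309 and 281), and replicate 2 of each exposed group between the exposures (1994 without that at 2 days and 1939 without that at 2 hours).

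Replicate numbers did not pair the arrays (correlations of same-numbered deviations 0.0156, -0.0650 and -0.123). With a replicate block the member counts were 4, 1 and 6. Values near the array median, as for Nr1i3, Ppara, Nr0b2 and 2 probes of Nr5a2, sit close to background. Any change there would be understated, and whether these probes detected their RNA was not tested. The causes of these differences were not tested.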
